A study of Mus musculus with 61 samples.

Results

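The comparison described here is that of embryos labelled Klf17 KO with embryos labelled Klf17 paternal KO (pKO), that is, the effect of losing the maternal allele of Klf17 in embryos that already lacked the paternal one. It rests on 3 KO and 2 pKO libraries out of 11 genotype libraries and 61 samples in the series, chosen by their genotype labels, and covers all 22911 genes counted, of which 16694 had enough reads to be tested. The other genotype libraries were 3 of maternal KO (mKO) and 3 of wild-type control (ctrl) embryos. The mKO libraries lack the maternal allele with the paternal one present, so that mKO against ctrl is the same loss on another paternal background and shares no library with KO against pKO. All embryos came from in vitro fertilisation after superovulation, were cultured with 2 mM 4-thiouridine (4SU) for 6 h, and were collected at the stage named M2C. In SLAM-seq, 4SU enters newly made RNA and iodoacetamide later alkylates it, so that it is read as T-to-C changes. Poly(A) RNA was copied with oligo-dT primers by a modified Smart-seq2 protocol. The deleted part of Klf17, the crosses, the embryos per genotype library and whether replicates came from separate parents are not stated. The p-values therefore reflect library-to-library spread, which may be technical. It is not given in the sources used here if unconverted reads were counted too, so a level may include RNA made before labelling.

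Kruppel-like factors are zinc finger proteins that bind CACCC-type and GC-rich sequences in promoters and enhancers. Klf17 RNA is stored in the mouse oocyte. After fertilisation, the mouse embryo lives on stored maternal RNA until its own genome is switched on, mainly in the 2-cell stage, when maternal RNAs are cleared and genes for ribosome assembly, splicing and protein turnover are among those first transcribed. A mother's allele can act through RNA or protein placed in the egg as well as through transcription in the embryo, whereas a father's allele acts mostly through transcription.

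Klf17 itself, the targeted gene, did not fall measurably in the libraries labelled KO. It had 673, 603 and 728 CPM (the standard depth-scaled read count, here over the TMM-adjusted library total) in the KO libraries, against 812 and 1015 CPM in the pKO libraries (log2 fold change -0.45, SE 0.33, adjusted p = 0.374). The mKO libraries had 359, 845 and 794 CPM and the ctrl libraries 596, 805 and 746 CPM. The KO libraries lay below both pKO libraries and inside the range of the ctrl libraries. Since the deleted part is not stated, a read count over the whole gene does not check the labels, and the groups are named by their labels throughout. Klf17 lies on chromosome 4 of GRCm38.p6 at chr4:117756659-117765666, on the minus strand. Its promoter is shown because it is the targeted locus, with the RefSeq sequence from 250 bases before to 50 after the gene's start (chr4:117765617-117765916, minus strand), in capitals where a script found 1 of 4 motifs on either strand. The motifs were the CACCC-type CCACCC, the GC box GGGCGG, the E-box CACGTG, which reads the same on both strands, and the ETS-type CCGGAAG.
Klf17: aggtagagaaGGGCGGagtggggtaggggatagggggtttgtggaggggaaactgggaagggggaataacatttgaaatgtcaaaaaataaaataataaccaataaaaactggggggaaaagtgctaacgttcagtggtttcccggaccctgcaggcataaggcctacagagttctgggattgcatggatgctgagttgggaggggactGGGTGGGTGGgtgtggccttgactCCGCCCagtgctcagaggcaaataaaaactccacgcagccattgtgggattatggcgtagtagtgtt
The window holds 2 CACCC-type matches, which overlap each other, and 2 GC boxes. Of 14 protein-coding genes within 500 kb of Klf17 that were tested, 1 was called, where 12.5% of all genes tested were called. It was Dph2, a diphthamide synthesis enzyme, with 18.5, 26.2 and 23.1 CPM in KO libraries, against 77.2 and 166 CPM in pKO libraries (log2 fold change -2.43, SE 0.60, adjusted p = 0.017). Dph2 was named after its values were seen.

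KO embryos differed from pKO embryos in 2087 genes at an adjusted p below 0.05, or 12.5% of those tested, and most of these were lower in KO. In all, 1615 genes were lower in KO (9.67% of those tested) and 472 were higher (2.83%), of which 1579 and 467 changed at least 2-fold and 542 and 229 at least 4-fold by the fitted value. The KO and pKO libraries did not overlap for 4033 genes lower in KO (24.2% of those tested) and for 3561 genes higher in KO (21.3%). Of all calls, 77.4% were lower in KO. That share was 71.2% where DESeq2 size factors replaced TMM, 66.7% where libraries were scaled by their totals and 56.0% in DESeq2's Wald test, which called 1971 genes lower and 1550 higher. The median log2 fold change of all genes tested was 0.09, and 0.20 under total count scaling, and list medians are read beside it. Calls went with level: the median of the average log2 CPM was 5.87 for lower genes, 4.36 for higher genes and 2.97 for genes not called. The share of a list that was called is set beside all genes with no matching for level. Leaving out any 1 KO or pKO library left fewer calls. The fewest lower genes came without KO replicate 2 (459) and the fewest higher genes without pKO replicate 2 (59). The mKO and ctrl libraries were not left out singly for KO against pKO, and its values without 1 library below refer to KO and pKO libraries. A fit without the 3 mKO libraries called more genes, 2275 lower and 1008 higher.

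**Figure D1:**
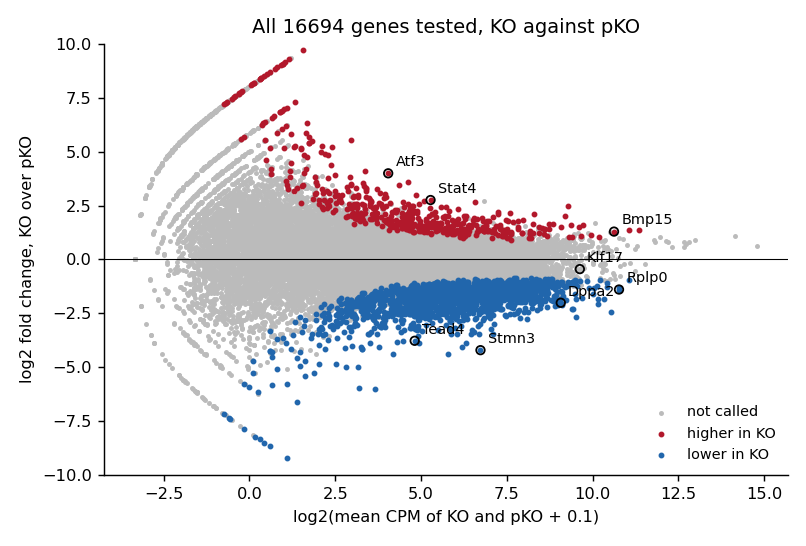
Fitted log2 fold change of KO over pKO for the 16694 genes tested, by the log2 of the mean CPM of both groups plus 0.1. Genes called at an adjusted p below 0.05 are in colour, 1615 lower and 472 higher in KO, and arcs at the left are genes with few or no reads in one group, whose fitted value depends on the prior count.

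Depth and mitochondrial reads moved with the genotypes. KO libraries held 14080264 to 15631152 reads and pKO libraries 21821878 to 23018252 reads, with 16932282 to 19048799 in mKO and 17858094 to 19876670 in ctrl. Mitochondrially encoded genes took 5.92 to 11.4% of the reads in KO and 3.73 to 5.63% in pKO, against 4.19 to 5.82% in mKO and 3.23 to 4.18% in ctrl. With all libraries thinned to the smallest total, 1577 genes were lower and 490 higher, and with mitochondrial genes left out, 1615 were lower and 476 higher. Across genes, log2 levels correlated at r = 0.902 to 0.921 between KO libraries, 0.924 between the pKO libraries and 0.850 to 0.886 between KO and pKO. mKO replicate 1 stood apart from the other mKO libraries: its mean r was 0.914 with the KO libraries and 0.879 with the pKO libraries, and comparisons that use mKO are given with and without it. Summed markers of cumulus cells came to 36.5 to 62.2 CPM in KO and 72.6 to 156 CPM in pKO, with Fshr at 0 in all libraries. Of 16 tested, 1 was lower in KO, Amhr2 (6.25%, against 9.67% of all genes). Sperm markers summed to 130.1 to 155 CPM in KO and 117 to 126 CPM in pKO, with Tnp2 at 0, and blood and stromal markers to 121 to 161 CPM in KO and 76.4 to 110 CPM in pKO, with Cd3e at 0. None of the 8 sperm and 12 blood and stromal genes tested was called. The part of depth, mitochondrial share and these markers in the results was not tested beyond the counts given. In such bulk libraries, fewer cells of a kind and less RNA per cell cannot be told apart.

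The genes with the largest falls were low in all 3 KO libraries and, in most cases, in mKO replicate 1. Stmn3, a stathmin that acts on microtubules, had 9.43, 14.9 and 8.24 CPM in KO libraries, against 195 and 208 CPM in pKO libraries (log2 fold change -4.21, SE 0.55, adjusted p = 0.00342). Its levels in the mKO libraries were 9.65, 72.5 and 46.1 CPM and in ctrl 138, 165 and 158 CPM. So KO and mKO replicate 1 were alike for this gene, and the other mKO libraries lay between KO and ctrl. Apol7e, of the apolipoprotein L family, had 0.41, 0 and 0.666 CPM in KO, against 28 and 21.4 CPM in pKO (log2 fold change -6.04, SE 1.01, adjusted p = 0.00408). Impdh1, an enzyme of guanine nucleotide synthesis, had 3.82, 6.29 and 4.91 CPM in KO, against 51.2 and 158 CPM in pKO (log2 fold change -4.39, SE 0.70, adjusted p = 0.00364). Both pKO libraries were far above every KO library, but pKO replicate 2 had over 3 times the level of pKO replicate 1. Ipo4, an importin that carries ribosomal proteins and histones into the nucleus, showed the same spread, with 8.61, 5.12 and 10.8 CPM in KO, against 63.6 and 212 CPM in pKO (log2 fold change -4.07, SE 0.63, adjusted p = 0.00364). As means ± SD over the 3 KO and 2 pKO libraries, which are used from here on, Cpn1, a carboxypeptidase subunit, averaged 1.61 ± 1.22 CPM in KO and 34.5 ± 12.5 CPM in pKO, Fbxo6, an F-box protein, 3.85 ± 1.76 CPM in KO and 57.7 ± 19.2 CPM in pKO, and Zfp977, a zinc finger protein, 2.52 ± 1.42 CPM in KO and 36.7 ± 13.1 CPM in pKO. Smyd5, a SET and MYND domain protein, averaged 10.2 ± 3.62 CPM in KO and 149.7 ± 64.8 CPM in pKO.

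Vmp1, Kif3c and Tnfrsf13b had small p-values too. Vmp1, a membrane protein of the endoplasmic reticulum needed for autophagosomes, had 100.1, 117 and 91.3 CPM in KO, against 560.1 and 435 CPM in pKO (log2 fold change -2.28, SE 0.33, adjusted p = 0.00364). Its KO libraries lay close together and far below either pKO library. Kif3c, a kinesin motor, averaged 22.7 ± 6.11 CPM in KO and 126 ± 8.49 CPM in pKO, and Tnfrsf13b, a receptor of the tumour necrosis factor family, 5.42 ± 1.52 CPM in KO and 52.9 ± 25 CPM in pKO. For 3 further genes that the naming rule selects the call was lost without single libraries, while the log2 fold change stayed at -2.27 or lower in all 15 alternatives. Xrcc1, a scaffold of DNA strand break repair, averaged 1.55 ± 0.496 CPM in KO and 25.6 ± 16.8 CPM in pKO (adjusted p up to 0.0828 without KO replicate 2 or pKO replicate 2). Polrmt, the mitochondrial RNA polymerase, averaged 2.91 ± 1.16 CPM in KO and 41 ± 37.9 CPM in pKO (adjusted p = 0.121 without pKO replicate 2). Wdr91, an endosomal protein, averaged 1.43 ± 0.893 CPM in KO and 21.3 ± 18 CPM in pKO (adjusted p up to 0.201 without any 1 KO library or pKO replicate 2).

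Ribosome biogenesis factors, the proteins that transcribe, cut and fold ribosomal RNA into subunits, were the list with the largest share of calls: 53 of 78 genes were lower in KO and 0 were higher, where 9.67% of all genes were lower. Their median log2 fold change was -1.39, 77 of the 78 lay below 0, and the libraries of both groups did not overlap, with KO lower, for 69 of them (88.5%, against 24.2% of all genes). Their summed level was 7865 to 8953 CPM in KO and 19002 to 19869 CPM in pKO, with 9384 to 15674 CPM in mKO and 15079 to 17502 CPM in ctrl. Imp3, a protein of the small-subunit processome, had 67.6, 61.1 and 44.5 CPM in KO, against 274 and 229.6 CPM in pKO (log2 fold change -2.12, SE 0.35, adjusted p = 0.00403). Ddx18, an RNA helicase of the large-subunit pathway, had 68.6, 91.7 and 80.4 CPM in KO, against 300.4 and 306 CPM in pKO (log2 fold change -1.92, SE 0.32, adjusted p = 0.00408). Ddx47, another nucleolar RNA helicase, had 81.3, 53.6 and 73.8 CPM in KO, against 229.8 and 377 CPM in pKO (log2 fold change -2.12, SE 0.37, adjusted p = 0.00449). In all 3 genes, every KO library was far below either pKO library. Utp23, of the small-subunit processome, averaged 89.4 ± 13.4 CPM in KO and 283 ± 81.5 CPM in pKO, and Nolc1, a nucleolar phosphoprotein, 120.4 ± 9.81 CPM in KO and 581 ± 303 CPM in pKO. Leaving out any 1 library lowered the count of falls, to between 14 (without pKO replicate 2) and 39 (without pKO replicate 1), and the median stayed between -1.58 and -1.27 over 15 alternatives.

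The promoters of these factors are shown because this list held the highest share of falls and Kruppel-like factors bind CACCC-type and GC-rich letters. Printed are the windows of the 3 members with the smallest p and of Nolc1, which was chosen because it holds 3 of the motifs. Capitals mark the 4 motifs searched, of which the E-box and the ETS-type motif were added after the results were seen. The windows, from RefSeq on GRCm38.p6, are chr9:56937250-56937549 for Imp3 on the plus strand, chr1:121567931-121568230 for Ddx18 on the minus strand, chr6:135011362-135011661 for Ddx47 on the plus strand and chr19:46075597-46075896 for Nolc1 on the plus strand.
Imp3: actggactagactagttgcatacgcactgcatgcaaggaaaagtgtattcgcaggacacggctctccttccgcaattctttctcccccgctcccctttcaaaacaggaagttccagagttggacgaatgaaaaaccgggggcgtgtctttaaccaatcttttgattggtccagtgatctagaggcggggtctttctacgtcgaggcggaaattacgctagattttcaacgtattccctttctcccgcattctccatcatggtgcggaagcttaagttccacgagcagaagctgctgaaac
Ddx18: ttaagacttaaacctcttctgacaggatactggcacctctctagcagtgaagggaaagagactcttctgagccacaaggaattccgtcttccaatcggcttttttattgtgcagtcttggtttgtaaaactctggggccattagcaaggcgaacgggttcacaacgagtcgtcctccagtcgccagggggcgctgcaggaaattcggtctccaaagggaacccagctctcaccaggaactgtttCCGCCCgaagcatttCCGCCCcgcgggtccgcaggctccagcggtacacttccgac
Ddx47: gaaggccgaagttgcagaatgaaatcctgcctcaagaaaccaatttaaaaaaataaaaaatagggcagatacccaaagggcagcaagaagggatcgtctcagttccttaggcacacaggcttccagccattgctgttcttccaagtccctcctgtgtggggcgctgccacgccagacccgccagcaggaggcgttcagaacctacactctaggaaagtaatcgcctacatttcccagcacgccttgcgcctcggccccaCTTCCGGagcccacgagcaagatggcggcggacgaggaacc
Nolc1: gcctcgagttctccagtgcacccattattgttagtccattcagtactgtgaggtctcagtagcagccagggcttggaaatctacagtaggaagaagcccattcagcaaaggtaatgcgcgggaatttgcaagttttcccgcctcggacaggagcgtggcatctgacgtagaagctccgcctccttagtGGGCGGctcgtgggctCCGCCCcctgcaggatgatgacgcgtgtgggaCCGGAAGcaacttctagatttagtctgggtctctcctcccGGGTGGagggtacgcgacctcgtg
Imp3 has none of the 4 motifs in this window, Ddx18 has 2 GC boxes near its start, Ddx47 has 1 ETS-type match and Nolc1 has 1 CACCC-type match, 2 GC boxes and 1 ETS-type match. Promoters were found for 64 of the 78 factors, as 75 windows. Of these windows, 36.0% held the CACCC-type motif, 70.7% the GC box, 17.3% the E-box and 33.3% the ETS-type motif on either strand. The shares in all 32851 promoter windows of the table were 31.5%, 35.7%, 7.15% and 8.86% in the same order. Over genes tested, whose promoters were found for 73.9% only, they were 36.7%, 56.7%, 9.26% and 14.6%. For the cytosolic ribosomal proteins described next they were 24.7%, 59.7%, 10.4% and 35.1%. All genes lower in KO had 31.2%, 59.8%, 12.6% and 27.8%. A match is a description of letters and shows no binding.

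Cytosolic ribosomal proteins were lower in KO for 53 of 86 genes (61.6%, against 9.67% of all genes) and higher for 0, with a median log2 fold change of -1.18. Rplp0, of the ribosomal stalk, had 1066, 982 and 828 CPM in KO, against 2635 and 2423 CPM in pKO (log2 fold change -1.40, SE 0.29, adjusted p = 0.00756). The KO libraries of Rplp0 were all below both pKO libraries, which were close to each other. Summed over the list, KO libraries held 9185 to 14140.3 CPM and pKO libraries 20377 to 32805 CPM, with 20741 to 22242 CPM in ctrl. Without pKO replicate 1, only 4 of the 86 were called, without KO replicate 1, 2 or 3, 32, 14 and 12 were, and without pKO replicate 2, 52 were. Many ribosomal protein genes have near-identical processed copies in the genome, so reads may be split among them. Ribosomal proteins of the mitochondrion were lower for 24 of 77 genes (31.2%, against 9.67% of all genes) and higher for 0 (median log2 fold change -1.01). Without any 1 KO library, 4 to 13 were lower, and the median ran from -1.17 to -0.74 over the alternatives. Mrpl15, of the large mitochondrial subunit, had 6.63, 4.02 and 8.18 CPM in KO, against 56.3 and 50.7 CPM in pKO (log2 fold change -3.09, SE 0.46, adjusted p = 0.00364).

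Translation factors were lower for 27 of 66 genes (40.9%, against 9.67% of all genes) and higher for 0, with a median log2 fold change of -0.75. Eef1d, an exchange factor of elongation factor 1, had 53.2, 46.9 and 31.8 CPM in KO, against 187 and 179 CPM in pKO (log2 fold change -2.05, SE 0.35, adjusted p = 0.00408). Eif3g, a subunit of initiation factor 3, had 45.6, 51.9 and 31.4 CPM in KO, against 189 and 214 CPM in pKO (log2 fold change -2.23, SE 0.42, adjusted p = 0.005). In both genes the pKO libraries lay close together and well above KO. Without any 1 library, 6 to 15 of the list were lower.

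Genes of protein turnover were also among those lower in KO. Of 39 proteasome subunits, 17 were lower in KO (43.6%, against 9.67% of all genes) and 0 higher (median log2 fold change -1.07). Without any 1 KO library, 3 to 8 were lower, and the median ran from -1.13 to -0.85 over the alternatives. Psmd4, a ubiquitin receptor of the proteasome cap, had 48.6, 37.7 and 31.5 CPM in KO, against 153 and 235 CPM in pKO (log2 fold change -2.30, SE 0.42, adjusted p = 0.00483). Psmd14, its deubiquitinase, averaged 83.9 ± 26.6 CPM in KO and 278 ± 69.2 CPM in pKO (log2 fold change -1.73, SE 0.34, adjusted p = 0.00638). Of 38 genes of autophagy and lysosome, 13 were lower (34.2%, against 9.67% of all genes) and 0 higher (median log2 fold change -0.97). Without any 1 KO or pKO library, 4 to 11 were lower, and the median ran from -1.11 to -0.75 over the alternatives. Ctsc, a lysosomal cathepsin, had 137, 262 and 226 CPM in KO, against 955 and 834 CPM in pKO (log2 fold change -2.10, SE 0.36, adjusted p = 0.00449). The mKO libraries had 184, 399 and 179 CPM of Ctsc and the ctrl libraries 770.4, 959.98 and 699 CPM, so 2 of the 3 mKO libraries were in the range of KO. Atg7, an enzyme of autophagosome formation, averaged 4.26 ± 1.66 CPM in KO and 40.8 ± 28.3 CPM in pKO (log2 fold change -3.26, SE 0.63, adjusted p = 0.00588), and it lost its call without pKO replicate 2 (adjusted p = 0.0771).

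The RNA polymerase II machinery and the splicing factors, which make and process messenger RNA, were lower for 23 of 100 and 24 of 92 genes. These shares were 23% and 26.1%, against 9.67% of all genes. Their medians were -0.73 and -0.63 on the log2 scale. Taf1b, a subunit of the RNA polymerase I selectivity factor that the family name brought into the list, had 13.9, 9.07 and 7.33 CPM in KO, against 60.5 and 59.1 CPM in pKO (log2 fold change -2.56, SE 0.39, adjusted p = 0.00364). Snrpa1, of the U2 small nuclear ribonucleoprotein, had 71.4, 70.3 and 46.1 CPM in KO, against 288 and 214 CPM in pKO (log2 fold change -2.01, SE 0.35, adjusted p = 0.00449). Higher in KO were 2 genes of the first list (2%, against 2.83% of all genes) and 0 of the second. The 2 higher genes, both X-linked, were the germ-line variant Taf7l and the copy Taf9b. Taf7l had 64.1, 89.7 and 87.8 CPM in KO, against 13.5 and 16 CPM in pKO (log2 fold change 2.45, SE 0.42, adjusted p = 0.00449). The counts were 5 to 15 and 2 to 11 lower without any 1 library.

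Among cell division genes, most calls were lower in KO. Of 39 replication genes, 12 were lower in KO (30.8%, against 9.67% of all genes) and 0 higher (median log2 fold change -0.55). Gins3, of the replicative helicase complex, had 28.7, 28.4 and 27.2 CPM in KO, against 142 and 248 CPM in pKO (log2 fold change -2.80, SE 0.43, adjusted p = 0.00364). Rrm1, the large subunit of ribonucleotide reductase, averaged 49.1 ± 18.9 CPM in KO and 183 ± 12.8 CPM in pKO (log2 fold change -1.90, SE 0.35, adjusted p = 0.00483). Of 40 cyclins, kinases and mitotic regulators, 11 were lower (27.5%, against 9.67%) and 2 higher (5%, against 2.83%), with a median log2 fold change of -0.47. Aurka, a mitotic kinase, averaged 257 ± 85.5 CPM in KO and 732 ± 131 CPM in pKO (log2 fold change -1.51, SE 0.33, adjusted p = 0.0105), and was not called without KO replicate 2 or pKO replicate 2 (adjusted p up to 0.0834). Cdc20, the activator of the anaphase-promoting complex, had 234, 264 and 195 CPM in KO, against 802 and 1500.2 CPM in pKO (log2 fold change -2.32, SE 0.55, adjusted p = 0.0142), and was not called without any 1 KO library or pKO replicate 2 (adjusted p up to 0.129). The 2 higher genes were Ccnd2, a D-type cyclin, and Wee2, an oocyte kinase that maintains meiotic arrest. Without any 1 library, 2 to 9 replication genes and 0 to 6 mitotic genes were lower.

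Nuclear genes of the respiratory chain were among those lower in KO, whereas the main fit (edgeR with TMM) called no mitochondrially encoded transcript. Of 83 nuclear-encoded subunits of complexes I to V, 16 were lower in KO (19.3%, against 9.67% of all genes) and 0 higher (median log2 fold change -0.79). Without any 1 KO or pKO library, 1 to 10 were lower, and the median ran from -0.98 to -0.35 over the alternatives. Ndufs7, of complex I, had 10, 8.63 and 3.51 CPM in KO, against 37.8 and 31.3 CPM in pKO (log2 fold change -2.23, SE 0.49, adjusted p = 0.0101). Of 10 mitochondrially encoded transcripts tested, 0 were called in the main fit, while DESeq2's Wald test called 5 higher. Other edgeR fits called some higher too: 6 with the replicate block, 5 under total count scaling and 4 without the mKO libraries. With no low-count filter 3 were higher, with DESeq2 size factors 2 and with only the 2 groups 2. All 10 had a positive log2 fold change with a median of 0.86. Their median stayed between 0.49 and 1.43 in the alternatives that kept them.

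**Figure D2:**
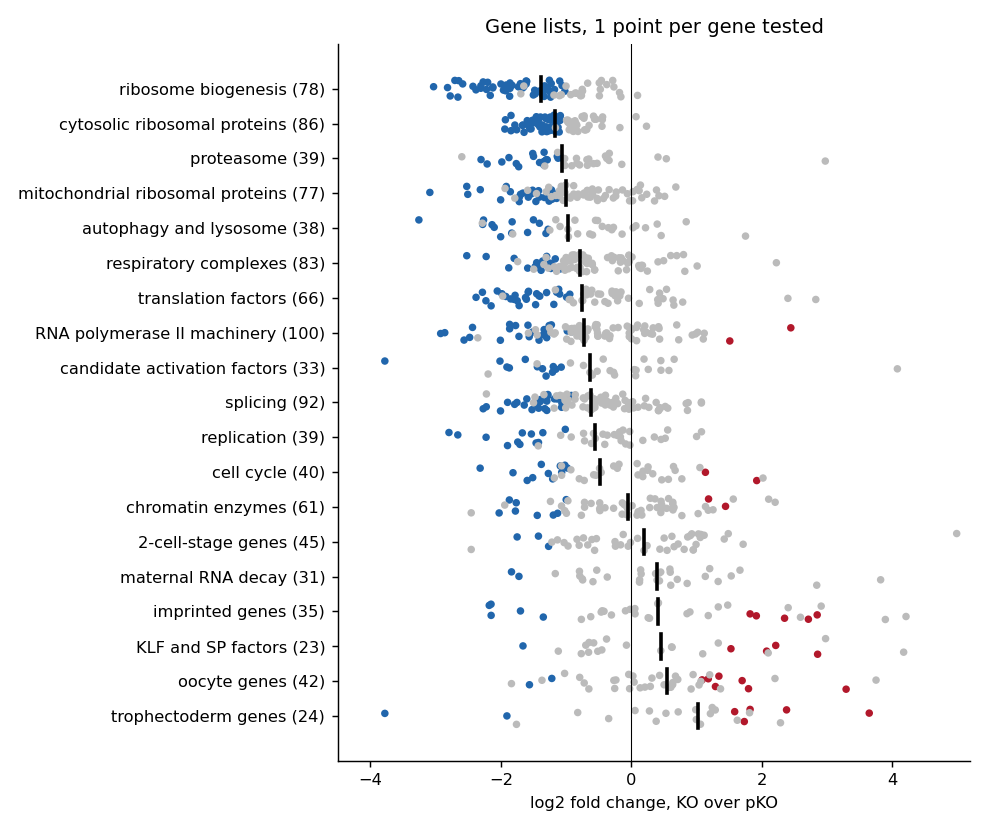
Fitted log2 fold change of KO over pKO for each gene of 19 lists, with the number tested in brackets. Blue points were called lower in KO, red points higher, grey points were not called, and the black bar is the median, which runs from -1.39 for ribosome biogenesis to 1.03 for trophectoderm genes.

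Proteins proposed to act in genome activation were lower for 12 of 33 genes (36.4%, against 9.67% of all genes) and higher for 0, with a median log2 fold change of -0.63. Tead4, a TEAD factor needed for trophectoderm, had 4.92, 2.85 and 3.63 CPM in KO, against 27.1 and 77.4 CPM in pKO (log2 fold change -3.78, SE 0.68, adjusted p = 0.00483). Dppa2, a chromatin protein that acts upstream of the 2-cell gene Dux in mouse embryonic stem cells, had 198, 248 and 195 CPM in KO, against 1012 and 712 CPM in pKO (log2 fold change -2.01, SE 0.37, adjusted p = 0.00483). Nfyc, a subunit of the CCAAT-binding factor NF-Y, had 106, 98.4 and 92.3 CPM in KO, against 287 and 324 CPM in pKO (log2 fold change -1.63, SE 0.30, adjusted p = 0.00483). The KO libraries were close together in these 3 genes, and the spread lay in pKO for Tead4. Tfap2c, an AP-2 factor, averaged 17.8 ± 1.95 CPM in KO and 66.6 ± 38 CPM in pKO (log2 fold change -1.91, SE 0.40, adjusted p = 0.00808), and was not called without pKO replicate 2 (adjusted p = 0.151). Also lower were Dppa4, Trim28, Zscan5b, Yy2, Nfyb, Smarca4, Kdm5b and Nr5a2, an orphan nuclear receptor, with log2 fold changes from -1.87 in Smarca4 to -1.07 in Nfyb. Without any 1 library, 4 to 7 of the list were lower.

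The OBOX homeobox family was divided. Of its 7 tested genes, 2 were lower (28.6%, against 9.67% of all genes) and 0 higher, and the family median was 0.86. Obox6 had 334, 340.4 and 279 CPM in KO, against 1294 and 972 CPM in pKO (log2 fold change -1.83, SE 0.34, adjusted p = 0.00483). Obox8 had 71.3, 61.2 and 49.4 CPM in KO, against 428 and 284 CPM in pKO (log2 fold change -2.55, SE 0.39, adjusted p = 0.00364). Both stayed called without any 1 library. Obox1, Obox2, Obox5 and Obox7 had positive log2 fold changes of 1.24, 1.18, 0.86 and 1.51, none of them called in the main edgeR fit (smallest adjusted p = 0.0537). In other fits OBOX genes were called higher, 4 with the replicate block and 3 with DESeq2's Wald test. With no low-count filter 3 were higher, with only the 2 groups 3, without the mKO libraries 3 and under total count scaling 2. Near-identical OBOX copies may share reads. Of 45 genes of the 2-cell stage, 3 were lower (6.67%, against 9.67% of all genes) and 0 higher, while DESeq2's Wald test called 3 in each direction and total count scaling 2 in each. The median was 0.20, and it fell below 0 in 1 or more alternatives (lowest -0.03). Sp110, a nuclear body protein, had 97.3, 79 and 93.3 CPM in KO, against 329.96 and 275 CPM in pKO (log2 fold change -1.75, SE 0.32, adjusted p = 0.00483). Zscan4d, of the Zscan4 cluster that marks this stage, averaged 124 ± 8.53 CPM in KO and 64.1 ± 16.8 CPM in pKO (log2 fold change 0.95, SE 0.42, adjusted p = 0.141), so no difference was shown for it, and its copies may share reads.

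Of 42 oocyte genes, 7 were higher in KO (16.7%, against 2.83% of all genes) and 2 lower (4.76%, against 9.67%), with a median log2 fold change of 0.54. Bmp15, an oocyte growth factor, had 2055, 2478 and 2180.4 CPM in KO, against 995 and 835 CPM in pKO (log2 fold change 1.29, SE 0.32, adjusted p = 0.0171). Oog4, of an oocyte multigene family, averaged 114 ± 31 CPM in KO and 35.2 ± 15.1 CPM in pKO (log2 fold change 1.70, SE 0.38, adjusted p = 0.0111). Dazl, an RNA-binding protein of germ cells, had 310.02, 478 and 271 CPM in KO, against 126 and 77.3 CPM in pKO (log2 fold change 1.80, SE 0.46, adjusted p = 0.0196). The KO libraries were above both pKO libraries in these 3 genes, but each call needed single libraries: none of the 3 was called without pKO replicate 2 (adjusted p over the alternatives up to 0.172, in Dazl). Zp3, a zona pellucida protein, went against the list with 39.4 ± 4.09 CPM in KO and 116 ± 20.2 CPM in pKO (log2 fold change -1.56, SE 0.33, adjusted p = 0.00803; adjusted p = 0.0507 without pKO replicate 1). The number of oocyte genes higher in KO was 0 without pKO replicate 2, 1 without KO replicate 2, 2 without pKO replicate 1, 4 without KO replicate 1 and 7 without KO replicate 3. Of 31 genes of the maternal RNA decay machinery, 2 were lower (6.45%, against 9.67% of all genes) and 0 higher. With DESeq2's Wald test, with no low-count filter, with only the 2 groups or without the mKO libraries, 5 were higher. Ythdf2, a reader of m6A that promotes RNA decay, had 285, 245 and 260.4 CPM in KO, against 872 and 866 CPM in pKO (log2 fold change -1.72, SE 0.30, adjusted p = 0.00446).

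Of 24 trophectoderm genes, 5 were higher in KO (20.8%, against 2.83% of all genes) and 2 lower (8.33%, against 9.67%). The lower ones were Tead4 and Tfap2c, and the higher ones Id2, Gata2, Eomes, Krt18 and Tfap2a. Gata2, a zinc finger factor of trophoblast, had 22.1, 42.4 and 30.8 CPM in KO, against 4.83 and 14.3 CPM in pKO (log2 fold change 1.73, SE 0.49, adjusted p = 0.0299), and was not called without KO replicate 2, KO replicate 3 or pKO replicate 1 (adjusted p up to 0.186). Without any 1 library, 0 to 3 of these genes were higher. Among 26 pluripotency genes, 0 were higher and 2 lower (7.69%, against 9.67%), Tfap2c and Fbxo15, an F-box gene of pluripotent cells, and DESeq2's Wald test called 4 higher and 3 lower. Fbxo15 averaged 345 ± 59.6 CPM in KO and 826 ± 110.4 CPM in pKO (log2 fold change -1.26, SE 0.29, adjusted p = 0.0125; adjusted p up to 0.0717 without KO replicate 1 or 2 or pKO replicate 1).

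Among 23 Kruppel-like and SP factors, the family of Klf17, 4 were higher in KO (17.4%, against 2.83% of all genes) and 1 lower (4.35%, against 9.67%), with a median log2 fold change of 0.45. Klf10, an early response gene, had 40.4, 29.4 and 50.4 CPM in KO, against 9.66 and 9.37 CPM in pKO (log2 fold change 2.07, SE 0.42, adjusted p = 0.00697). The mKO libraries had 44.2, 30 and 25.9 CPM and the ctrl libraries 15.2, 11.8 and 15.8 CPM of Klf10, so every library without the maternal allele was above every library with it. Klf6 averaged 29 ± 7.07 CPM in KO and 6.24 ± 1.99 CPM in pKO (log2 fold change 2.21, SE 0.53, adjusted p = 0.0149), and Sp8 19.5 ± 3.44 CPM in KO and 2.69 ± 2.69 CPM in pKO (log2 fold change 2.86, SE 0.77, adjusted p = 0.0245). Klf7 had a log2 fold change of 1.53. Klf9 was the one that fell, with 9.79 ± 1.42 CPM in KO and 31 ± 3.52 CPM in pKO (log2 fold change -1.66, SE 0.40, adjusted p = 0.0146). None of Klf6, Klf9, Klf10 and Sp8 was called without pKO replicate 2 (adjusted p over the alternatives up to 0.18, in Sp8).

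Imprinted genes, of which only the copy of 1 parent is normally active, changed in both directions: 6 of 35 were higher in KO (17.1%, against 2.83% of all genes) and 5 lower (14.3%, against 9.67%), and DESeq2's Wald test called 12 higher and 5 lower. Usp29, a ubiquitin protease of the Peg3 domain, had 84.6, 60.3 and 56.7 CPM in KO, against 309.5 and 298 CPM in pKO (log2 fold change -2.18, SE 0.35, adjusted p = 0.00364). Peg3, of the same domain and named after its values were seen, went the other way, with 47 ± 18.5 CPM in KO and 12.4 ± 5.5 CPM in pKO (log2 fold change 1.92, SE 0.57, adjusted p = 0.0367). Plagl1, a zinc finger factor, had 14.7, 91.8 and 69.3 CPM in KO, against 8.0 and 9.83 CPM in pKO (log2 fold change 2.72, SE 0.62, adjusted p = 0.0117). KO replicate 1 was near the pKO libraries for Plagl1, and the call was lost without KO replicate 2 or either pKO library (adjusted p up to 0.0744). Gnas, encoding a G protein subunit, averaged 92.9 ± 26.3 CPM in KO and 26.3 ± 6.66 CPM in pKO (log2 fold change 1.82, SE 0.43, adjusted p = 0.013; adjusted p up to 0.121 without KO replicate 2 or pKO replicate 2). Zdbf2 averaged 26.2 ± 4.54 CPM in KO and 3.63 ± 0.643 CPM in pKO (log2 fold change 2.85, SE 0.82, adjusted p = 0.0322), and was not called without any 1 library (adjusted p up to 0.147). Without pKO replicate 2 or KO replicate 2, 0 imprinted genes were higher. Several of these loci hold antisense transcripts, whose reads cannot be told apart from the gene's own, since the strand counted is not given in the sources used here.

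Among the genes that rose most, some were also high in mKO libraries. Atf3, a transcription factor induced by stress, had 18.6, 35.5 and 38.5 CPM in KO, against 0.927 and 2.92 CPM in pKO (log2 fold change 4.00, SE 0.86, adjusted p = 0.00904). The mKO libraries had 19, 2.86 and 25.5 CPM and the ctrl libraries 0.798, 2.42 and 1.2 CPM, so Atf3 was also high in mKO replicates 1 and 3. The call was lost without pKO replicate 1 (adjusted p = 0.0657). Stat4, a transcription factor of cytokine signalling, had 65.8, 83.4 and 52.9 CPM in KO, against 9.07 and 10.8 CPM in pKO (log2 fold change 2.76, SE 0.51, adjusted p = 0.00483). Its mKO libraries, at 25.2, 7.28 and 15.4 CPM, lay near the ctrl libraries at 21.5, 12.2 and 19.2 CPM. Gabrq, a GABA receptor subunit, had 26.7, 76.3 and 33.4 CPM in KO, against 4.83 and 2.78 CPM in pKO (log2 fold change 3.58, SE 0.59, adjusted p = 0.00408). Rnase4, a secreted ribonuclease, had 16.3, 59.1 and 37.6 CPM in KO, against 3.9 and 2.97 CPM in pKO (log2 fold change 3.45, SE 0.60, adjusted p = 0.00466). Both were higher in every KO than in every pKO library, with a range within KO of more than 2-fold.

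Other genes with small p-values were Samd10 and Tnfaip8. Samd10, with a sterile alpha motif, had 58, 68.3 and 64 CPM in KO, against 10.5 and 14.1 CPM in pKO (log2 fold change 2.36, SE 0.37, adjusted p = 0.00364). Its ctrl libraries, at 33.9, 32.6 and 31.1 CPM, were below every KO library and above both pKO libraries. Tnfaip8, a regulator of cell survival, had 226, 373 and 239 CPM in KO, against 71.5 and 86.3 CPM in pKO (log2 fold change 1.83, SE 0.34, adjusted p = 0.00483). The naming rule also gives 6 genes whose call was lost without 1 or more single libraries, while the log2 fold change stayed at 2.17 or higher in all 15 alternatives. They are Ceacam2, a cell adhesion molecule, with 23.5 ± 11.2 CPM in KO and 2.46 ± 0.526 CPM in pKO, Coch, an extracellular matrix protein, with 24.8 ± 8.63 CPM in KO and 2.9 ± 1.61 CPM in pKO, Prkg1, a cGMP-dependent kinase, with 27.1 ± 5.34 CPM in KO and 3.33 ± 2.61 CPM in pKO, Morc4, an ATPase, with 27.9 ± 9.23 CPM in KO and 3.72 ± 3.5 CPM in pKO, Tpp1, a lysosomal peptidase, with 20.1 ± 6.07 CPM in KO and 3.11 ± 1.37 CPM in pKO, and AC131117.1 with 51 ± 26.3 CPM in KO and 6.45 ± 1.58 CPM in pKO. Their largest adjusted p without any 1 library ran from 0.0561 in Coch to 0.156 in Prkg1.

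Of 32 chaperone and unfolded protein response genes, 2 were higher in KO, Atf3 and Xbp1 (6.25%, against 2.83% of all genes). A further 3 were lower (9.38%, against 9.67%). Hspa8, the constitutive Hsp70 chaperone, had 528, 577 and 574 CPM in KO, against 1898 and 2168 CPM in pKO (log2 fold change -1.86, SE 0.32, adjusted p = 0.0045). Hsp90ab1, the constitutive Hsp90, had 205, 285 and 193 CPM in KO, against 753 and 1487 CPM in pKO (log2 fold change -2.30, SE 0.52, adjusted p = 0.0113), and was not called without KO replicate 3 or pKO replicate 2 (adjusted p up to 0.118). Of 29 p53 genes, 2 were lower, Trp53 and Aen, and 1 higher, Btg2, each of them lost without 1 or more single libraries. Among 61 chromatin enzymes 8 were lower and 2 higher, among 27 cholesterol genes 1 and 1. Of 25 glycolysis genes 1 was lower and 0 higher, and of 20 m6A factors 1 and 0. These shares lie near or below the background of 9.67% lower and 2.83% higher, other than 13.1% lower for chromatin and 6.25% higher for stress genes. The medians of the stress, p53, chromatin, cholesterol, glycolysis and m6A lists changed sign among the alternatives. Among chromatin enzymes, Ehmt1, a histone H3 lysine 9 methyltransferase, averaged 14.1 ± 6.98 CPM in KO and 57.5 ± 1.29 CPM in pKO (log2 fold change -2.03, SE 0.43, adjusted p = 0.00868; adjusted p = 0.0514 without KO replicate 2), and Smarca2, an ATPase of the BAF remodeller, 543 ± 124 CPM in KO and 199 ± 38.4 CPM in pKO (log2 fold change 1.44, SE 0.37, adjusted p = 0.0197; adjusted p up to 0.16 without KO replicate 2 or either pKO library).

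**Figure D3:**
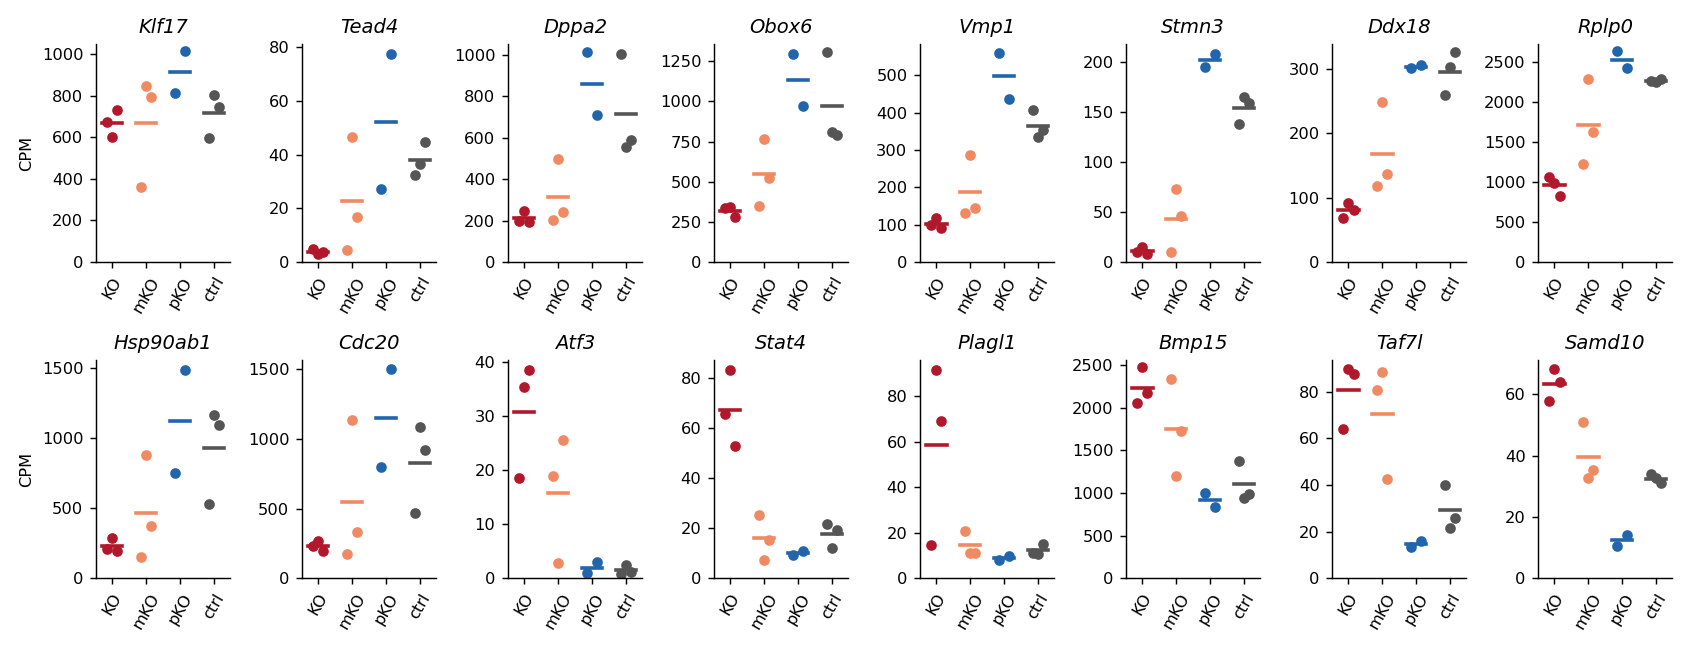
CPM of 16 genes in each library of KO, mKO, pKO and ctrl, with points for libraries (3, 3, 2 and 3) and a bar at each group mean, on linear axes that start at 0. Klf17 overlaps ctrl in KO, Stmn3 is lowest in the KO libraries and mKO replicate 1, and Stat4 is high in the KO libraries only.

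To place the changes in development, the same genes were read in the wild-type windows of the series, which are other libraries. Of genes tested in both tables (15388), 4091 rose at least 2-fold between 12-18hpi and 24-30hpi and 3720 fell at least 2-fold, where hpi means hours post insemination. Of the rising genes, 905 were lower in KO than in pKO (22.1%, against 10.5% of all genes in both tables) and 76 higher (1.86%, against 2.96%), with a median log2 fold change of -0.68. Of the falling genes, 166 were lower (4.46%) and 162 higher (4.35%), with a median of 0.42. Seen from the calls, 56.1% of the lower genes were in the rising set and 10.3% in the falling set. Of the higher genes, 16.7% were in the rising set and 35.5% in the falling set, and of genes not called, 23.4% and 25.5%. Centred on each gene's own mean of log2(CPM + 1), the lower genes had a median of -1.06 at 12-18hpi, 0.11 at 24-30hpi, 1.25 at 30-36hpi, 1.77 at 48-54hpi, 1.22 at 70-76hpi and 0.59 at 90-96hpi. The higher genes had a median of 0.93 at 12-18hpi, 0.55 at 24-30hpi, -0.58 at 30-36hpi, -1.46 at 48-54hpi, -1.37 at 70-76hpi and -0.91 at 90-96hpi. The 3110 rising genes that were not called show that most genes of this set did not pass the test. The shares of rising and falling genes were not matched for level. Without any 1 library, 283 to 521 of the rising genes were lower and 17 to 106 of the falling genes were higher.

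**Figure D4:**
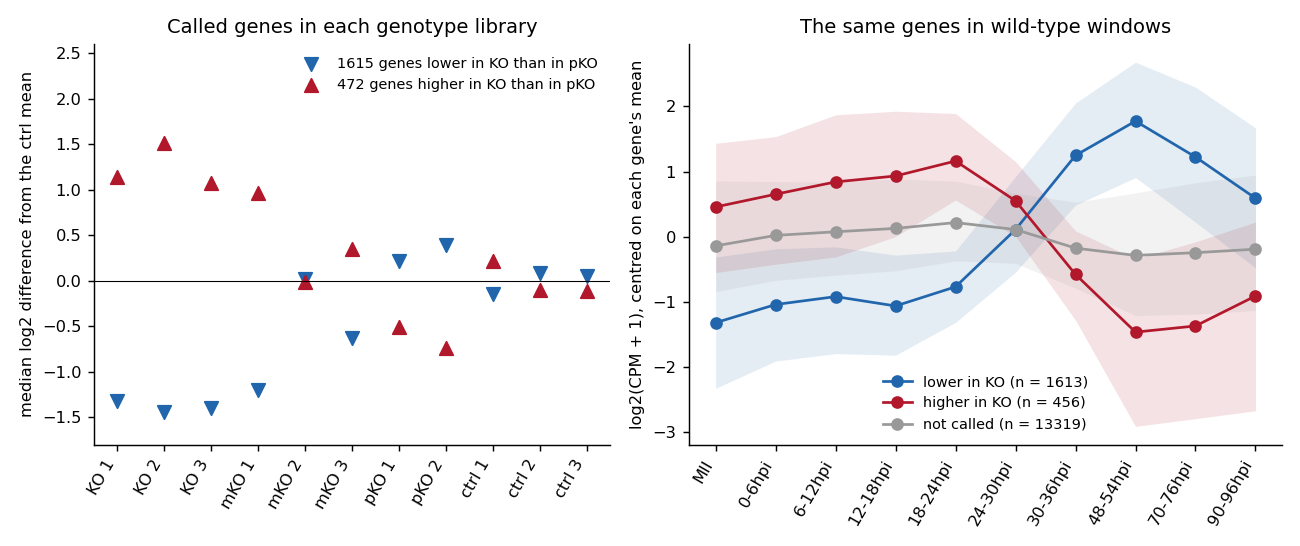
Left, median difference from the ctrl mean (log2 scale) of the 1615 genes lower and the 472 genes higher in KO than in pKO, in each genotype library; KO and pKO values show the choice of the genes. Right, median log2(CPM + 1) of the same genes across the wild-type windows, centred on each gene's mean, with shading from the 25th to the 75th percentile: the lower genes are highest at 48-54hpi (1.77), and the higher genes are highest at 18-24hpi (1.16) and lowest at 48-54hpi (-1.46).

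Loss of the maternal allele alone gave no call in the main edgeR fit. In mKO against ctrl, 0 of 16694 genes passed an adjusted p below 0.05 (0%), with 1243 at an unadjusted p below 0.05 and 966 without mKO replicate 1, and DESeq2's Wald test called 32. Relative to the ctrl mean, the median of the 1615 lower genes was -1.32, -1.45 and -1.39 in the KO libraries, on the log2 scale. It was -1.19, 0.02 and -0.62 in the mKO libraries, and 0.22 and 0.39 in the pKO libraries. The 472 higher genes had medians of 1.14, 1.51 and 1.07 in KO, 0.96, -0.01 and 0.35 in mKO, and -0.50 and -0.74 in pKO. The mKO libraries thus spread from the level of KO in replicate 1 to that of ctrl in replicate 2.

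In mKO against ctrl, 1491 of the 1615 genes (92.3%) lower in KO than in pKO also had a negative log2 fold change, as did 73.1% without mKO replicate 1. The median log2 fold change of these genes in mKO against ctrl was -0.50, and -0.20 without that library. For the 472 higher genes, 389 (82.4%) had a positive log2 fold change in mKO against ctrl, and 65.3% without that library. Over all genes tested, 67.8% had the same sign in both comparisons, and 55.7% without mKO replicate 1. Across all genes the log2 fold changes of both comparisons correlated at Pearson r = 0.21 and Spearman rho = 0.37, and at r = 0.03 and rho = 0.12 without mKO replicate 1, as a description over genes that share libraries within each comparison. Dppa2 had 204, 499.7 and 241 CPM in mKO libraries, against 1005, 554 and 591 CPM in ctrl libraries, and Ddx18 117, 248 and 136 CPM against 258, 303 and 326 CPM. In both genes, all mKO libraries were below all ctrl libraries, while neither passed the test in mKO against ctrl (smallest adjusted p over all genes 0.616).

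**Figure D5:**
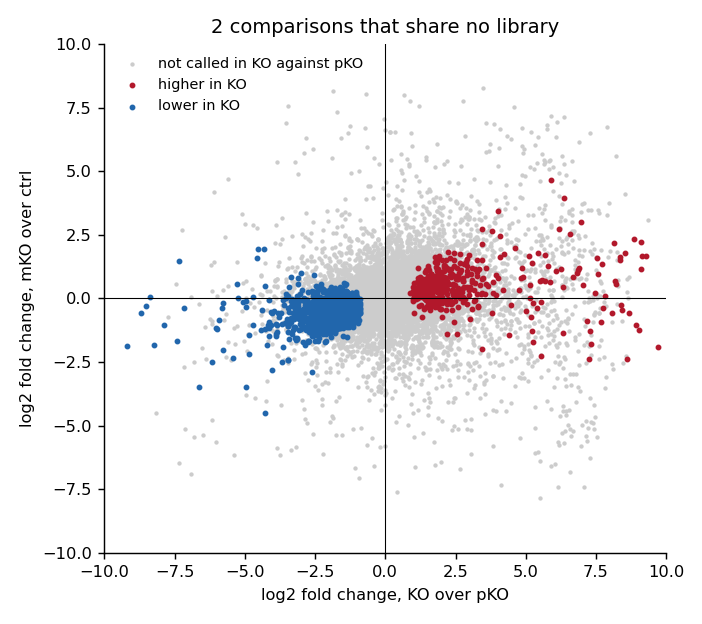
Log2 fold change of mKO over ctrl against that of KO over pKO, 1 point per gene, with genes called in KO against pKO in colour. Of the called genes, 92.3% of those lower and 82.4% of those higher in KO have the same sign on both axes, against 67.8% of all genes, and mKO replicate 1 contributes to these shares.

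The difference between both effects, KO over pKO minus mKO over ctrl, was tested directly. It passed for 0 genes in the main edgeR fit (1929 at an unadjusted p below 0.05), while DESeq2's Wald test called 83. Without mKO replicate 1, edgeR called 359 genes for the difference, and without mKO replicate 2 it called 110 genes in mKO against ctrl. For Stat4 the difference of log2 fold changes was 2.90 (SE 0.64, adjusted p = 0.357), and for Stmn3 -2.37 (SE 0.70, adjusted p = 0.357). Without mKO replicate 1 these were 3.39 (SE 0.59, adjusted p = 0.0206) for Stat4 and -2.84 (SE 0.43, adjusted p = 0.0206) for Stmn3. Of the mKO libraries, replicate 1 was the most like KO, so leaving it out favours a difference by that choice. Stat4 and Stmn3 were picked for their KO against pKO values, which enter the difference, so nothing is read from these p-values. Side by side, and with shared libraries, KO against ctrl called 1054 genes lower (6.31%) and 304 higher (1.82%). pKO against ctrl called 0 (0%; 476 at an unadjusted p below 0.05), and KO against mKO called 0 (0%; 2220 at an unadjusted p below 0.05). Without mKO replicate 1, KO against mKO called 788 genes lower and 258 higher, which the same choice of library favours. The 1615 lower genes had medians of -1.40 in KO against ctrl and 0.32 in pKO against ctrl, and the 472 higher genes 1.30 and -0.64. These sets were chosen for their difference between KO and pKO, so nothing is read from the signs.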

How the data were processed

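The authors deposited a table of read counts per gene for 11 genotype libraries and another for 30 wild-type window libraries, per the file headers. Of the second table, 1 damaged record (gene Nyx) was left out. In the deposited column of 90-96hpi replicate 3 that record held a value that was not whole, so the column was read as estimated counts and rounded. The submitters' processing notes name Trim Galore 0.6.10, STAR 2.7.10a, SAMtools 1.12 and the build mm10. The counting tool, the strand and any use of T-to-C conversions are not given in the sources used here. Chromatin accessibility (14) and embryo-number (6) libraries were not used. Columns named WT in the genotype table were read as the ctrl libraries.

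Groups came from genotype labels and titles. The 11 genotype libraries entered 1 fit with edgeR 4.0.16 under R 4.3.3, using TMM, filterByExpr (count at least 10, total at least 15) and a robust two-sided quasi-likelihood F-test. A gene was called where its p, after Benjamini-Hochberg adjustment over all 16694 genes, was below 0.05. The SE is the size of the log2 fold change over the square root of F. No replicates were alike within sampling noise: the chi-square per degree of freedom was at least 20.5. Rising and falling genes came from the same kind of fit of the window table.

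The comparison, the gene lists, the tests and the naming rule were chosen with earlier results of these data known, so lists are described by counts and medians with no set test. The rule named Klf17, and then genes that were called, averaged 20 CPM or more in whichever group was higher, did not overlap between groups and had a symbol that is no clone or prediction name (264 higher and 1360 lower). It took 12 genes from either end of the log2 fold changes, the 6 smallest p in each direction and up to 4 members of each list by p. Part of what it took is left out of the text. No gene was called in both maternal-allele comparisons or for their difference. Genes named outside the rule (Dph2, Nolc1, Zscan4d, Peg3, Klf7, Taf9b, Ccnd2, Wee2, other OBOX genes, further activation, trophectoderm, stress and p53 genes, and X- and Y-linked genes) were chosen after their values were seen.

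Alternatives were DESeq2 1.42.0, its size factors in edgeR, scaling by totals, no filter on low counts, only the 2 groups and a replicate block. Others were a minimum log2 fold change of 1, thinned counts and mitochondrial genes left out. Each library of the groups in a comparison was also left out in turn. A fit without the 3 mKO libraries was added after the data were seen. Promoters, from RefSeq on GRCm38.p6, were found for 75.5% of the lower genes, 73.1% of the higher genes and 73.8% of genes not called. In the same order, 31.2%, 35.2% and 37.3% of their windows held the CACCC-type motif. The GC box was in 59.8%, 56.7% and 56.4%, the E-box in 12.6%, 8.35% and 8.93% and the ETS-type motif in 27.8%, 6.15% and 13.5%. Genes without a promoter are missing from these shares, and no motif difference between the sets was tested. Scripts for figures ran under Python 3.11.15 with matplotlib 3.10.9, numpy 2.4.6 and pandas 2.3.3.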

Additional observations from a re-analysis of the deposited data

How the results depend on the processing

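The 111 called genes that the naming rule selected kept their direction in all 15 alternatives, and the calls were lost most often without pKO replicate 2 (49 genes) and KO replicate 2 (40 genes), against 3 under total count scaling and 0 with DESeq2's Wald test. These 111 genes were chosen for their calls in the same libraries, so a kept direction is largely set by that choice. The same holds for the ranges of log2 fold change given for named genes. The setting with a minimum log2 fold change of 1 reuses the values of the main fit. Genes named outside the rule were not recomputed one by one. Klf17 was not called in any. Without pKO replicate 1, 2 sperm markers that were not called lost their negative sign: Akap3 ran from -7.39 to 0 and Ldhc from -0.86 to 0.17 without 1 library. Counts moved between the alternatives. Genes higher in KO than in pKO numbered 472, and 1550 with DESeq2's Wald test, 1017 with no low-count filter, 770 in a fit of only the 2 groups, 860 with a replicate block, 1008 without the 3 mKO libraries in the fit and 59 to 292 without 1 library. Genes lower numbered 1615, and 459 to 929 without 1 library; the other settings stayed within 1.5 times of it (1269 under total count scaling to 2275 without the mKO libraries). Lower calls were 77.4% of the calls, against 65% with no filter, 68.7% with only the 2 groups and 68.1% with the block. Calls in mKO against ctrl numbered 0, and 32 with DESeq2, 47 with no filter and 0 to 110 without 1 library. Calls for the difference of both effects numbered 0, and 83 with DESeq2, 319 with no filter and 0 to 359 without 1 library. Rising genes that were lower numbered 905, and 283 to 521 without 1 library. Falling genes that were higher numbered 162, and 469 with DESeq2, 296 with no filter, 282 with the replicate block, 292 without the mKO libraries and 17 to 106 without 1 library. Fits without 1 KO or pKO library called fewer genes, while the fit without the 3 mKO libraries called more, 2275 lower and 1008 higher. What moved the counts was not tested. The replicate numbers do not pair the samples by any label: deviations of same-numbered KO and pKO libraries correlated at 0.06 and -0.03, and the block called 1835 genes lower and 860 higher. With 3 against 2 libraries of 14080264 to 23018252 reads, genes of few reads have wide SEs, and a gene not called is not shown to be equal.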

Other observations

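Genes of the X chromosome were more often higher than lower in KO against pKO, the other way round from autosomal genes. Of 606 X-linked genes tested, 48 were higher in KO (7.92%) and 17 lower (2.81%), with a median log2 fold change of 0.64. Of 14890 autosomal genes, 400 were higher (2.69%) and 1516 lower (10.2%), with a median of 0.06, and over the 19 autosomes 1.38 to 4.65% of genes were higher and 7.22 to 13.7% lower. The X-linked genes had medians of 0.35 in KO against ctrl, -0.20 in pKO against ctrl and 0.08 in mKO against ctrl. This set was looked at after the results were seen, and no test of it was made. Of genes described above, Gabrq, Morc4, Bmp15, Taf7l and Taf9b were among the higher X-linked genes and Yy2 among the lower. Xist, the long RNA that silences the X chromosome in females, had 15.1, 16.1 and 18.5 CPM in KO, against 6.64 and 5.24 CPM in pKO (log2 fold change 1.48, SE 0.62, adjusted p = 0.123), and the ctrl libraries had 13.6, 15 and 12.5 CPM. The mKO libraries had 18.6, 17.8 and 2.67 CPM of Xist. The Y-linked Uty, a histone demethylase homologue, had 10.3, 7.31 and 13.1 CPM in KO, against 22.2 and 20.1 CPM in pKO (log2 fold change -1.04, SE 0.48, adjusted p = 0.155). Uty had 9.09, 24.1 and 26.6 CPM in the mKO libraries and 13.6, 11.9 and 8.97 CPM in the ctrl libraries. The Y-linked Ddx3y, Eif2s3y and Kdm5d did not follow Uty, as their KO and pKO libraries overlapped (log2 fold changes -0.12, -0.75 and 0.14). Ddx3y had 2.32, 16.8 and 28.1 CPM in KO, against 19.5 and 14.7 CPM in pKO. In all, 0 of 8 Y-linked genes tested were called. The sex of the pooled embryos is not stated, and its part in these values was not tested.

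Higher X-linked genes included Gpr50, an orphan receptor related to melatonin receptors, with 312, 398 and 284 CPM in KO, against 121 and 124 CPM in pKO (log2 fold change 1.43, SE 0.32, adjusted p = 0.0116). Prkx, a protein kinase, had 65.3, 119.8 and 62.6 CPM in KO, against 18.4 and 22.6 CPM in pKO (log2 fold change 2.01, SE 0.47, adjusted p = 0.0135). Pdk3, a kinase of pyruvate dehydrogenase, had 200.4, 162 and 124 CPM in KO, against 80.7 and 50.4 CPM in pKO (log2 fold change 1.31, SE 0.36, adjusted p = 0.0263). Lower X-linked genes included Gata1, a transcription factor best known from blood cells, with 16.5, 15.4 and 18.3 CPM in KO, against 103 and 225 CPM in pKO (log2 fold change -3.29, SE 0.57, adjusted p = 0.0045). The mKO libraries had 18.4, 149 and 50.4 CPM and the ctrl libraries 142, 187 and 180.1 CPM of Gata1, so mKO replicate 1 was at the level of KO. Eda, a ligand of the tumour necrosis factor family, had 9.56, 16.1 and 14.4 CPM in KO, against 47.2 and 54.8 CPM in pKO (log2 fold change -1.94, SE 0.38, adjusted p = 0.00607). These genes were chosen after their values were seen, and their calls were not recomputed without single libraries.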
